A study of Mus musculus with 16 samples.

Results

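Esrrb and Tfcp2l1 are 2 transcription factor genes of the network that holds mouse embryonic stem cells in the naive state. They were chosen by the number of single-strand break peaks they carried in the same 4 peak lists that are described here, so their peak numbers are a description and support nothing by themselves. Members are all peaks sharing at least 1 bp with the gene body or the 5 kb on each side of it, by the GENCODE M21 annotation of mm10. That gave 66 of 103456 peaks, 48 at Esrrb and 18 at Tfcp2l1, and these merged into 38 of 60797 regions, 25 at Esrrb and 13 at Tfcp2l1. The 2 genes were set beside 21911 protein-coding genes.

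Single-strand break sequencing (SSB-seq) labels free 3' ends in genomic DNA with digoxigenin-dUTP through a short reaction of E. coli DNA polymerase I, pulls the labelled fragments down with an antibody (IP) and sequences them beside untreated input DNA. It was applied to C57BL/6JRj mouse embryonic stem cells kept in 2i medium, without serum and with LIF at 1000 U/ml. The study asks how the thymine DNA glycosylase TDG, a base excision repair enzyme of DNA demethylation, and the PARP inhibitor talazoparib change single-strand breaks. There were 16 libraries, 3 IP and 1 input in each of 4 conditions, and 1 peak list was used for each condition.

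The 4 conditions were wild type cells with DMSO (WT DMSO), wild type cells with 5 nM talazoparib for 24 h (WT talazoparib), Tdg-depleted cells with DMSO (KO DMSO) and Tdg-depleted cells with 5 nM talazoparib for 24 h (KO talazoparib). Depletion came from excising a Tdg minigene with 4-OHT, given at 5 uM for 2 h before an experiment. The protocol text is the same for all samples and does not say whether the wild type cells also received 4-OHT. The DMSO time and the relation of the 3 IP libraries to cultures or clones are not given in the sources used here. No flow cell was used for both genotypes, so a genotype difference and a flow cell difference cannot be told apart. Neither cell identity nor the loss of Tdg can be checked from break peaks.

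ESRRB is an orphan nuclear receptor that binds DNA as a monomer at an extended half-site and activates many genes of the naive network. Its gene is held down by TCF7L1, and the GSK3 inhibitor of 2i medium relieves that repression. TFCP2L1 is a factor of the CP2 and grainyhead family whose gene is activated by LIF through STAT3. Both factors help cells to renew themselves in 2i with LIF, and both are lost as cells leave the naive state. TDG removes oxidised forms of 5-methylcytosine, which lie mostly at CpG sites, and its product is an abasic site that is nicked during repair.

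Of the 38 regions, numbered along each gene, 3 had a peak in all 4 lists, and the middle 300 bases of the stretch that all 4 lists covered are shown first because they are the positions on which every condition met. Capitals mark CpG dinucleotides. Esrrb region 18 (chr12:86498649-86498948, plus strand, GRCm38.p6, the assembly of mm10) and Esrrb region 19 (chr12:86501797-86502096) lie in intron 3 of transcript Esrrb-204, and Tfcp2l1 region 6 (chr1:118647973-118648272) lies in intron 2 of Tfcp2l1-201.
Esrrb region 18: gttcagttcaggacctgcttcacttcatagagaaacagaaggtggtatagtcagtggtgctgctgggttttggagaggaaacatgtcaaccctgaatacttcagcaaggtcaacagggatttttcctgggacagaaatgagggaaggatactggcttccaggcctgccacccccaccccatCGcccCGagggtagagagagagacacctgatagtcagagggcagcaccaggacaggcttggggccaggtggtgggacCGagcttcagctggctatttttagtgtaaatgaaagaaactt
Esrrb region 19: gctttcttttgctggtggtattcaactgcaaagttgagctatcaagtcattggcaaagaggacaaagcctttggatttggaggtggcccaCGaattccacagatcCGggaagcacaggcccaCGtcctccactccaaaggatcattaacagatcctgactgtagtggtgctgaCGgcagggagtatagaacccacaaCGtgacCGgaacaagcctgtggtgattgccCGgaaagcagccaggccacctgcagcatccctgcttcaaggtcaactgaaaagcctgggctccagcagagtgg
Tfcp2l1 region 6: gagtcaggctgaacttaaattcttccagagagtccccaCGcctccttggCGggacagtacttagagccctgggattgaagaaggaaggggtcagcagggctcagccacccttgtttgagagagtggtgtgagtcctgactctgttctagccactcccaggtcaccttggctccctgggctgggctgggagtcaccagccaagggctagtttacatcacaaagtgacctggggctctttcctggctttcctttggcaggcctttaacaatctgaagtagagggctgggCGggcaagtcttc

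These 3 stretches held 3, 7 and 3 CpGs, with a GC content of 52.0%, 53.3% and 56.0%. The same 300-base window in 5396 regions of the genome whose peaks of all 4 lists share a stretch had a median of 25 CpGs and 65.0% GC. At most 3 CpGs were present in 6.36% of those windows and at most 7 in 14.5%. Of the 5756 regions found in all 4 lists, 81.7% touched a promoter, here the stretch from 1 kb before to 100 bp after any GENCODE transcript start. Esrrb region 18 and Tfcp2l1 region 6 touched none, and Esrrb region 19 touched that of the short processed transcript Esrrb-205. So the members that every condition shared were intronic and poor in CpG beside the other regions of that kind.

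The letters of known binding motifs were searched on both strands of these 3 windows. The extended ESRRB half-site TCAAGGTCA was present in Esrrb region 19, at chr12:86502059-86502067, and in 0.389% of the 5396 windows. The nuclear receptor half-site AGGTCA, which is the end of that longer motif, was present in all 3 windows and in 11.9% of the 5396. Tfcp2l1 region 6 also held the TFCP2L1 dimer pattern, which joins a pair of CCAG or CCTG motifs, which 12.9% of windows held, and the KLF and SP box GGGCGGG, which 47.7% held. A match describes letters and is not a bound site, and the octamer ATTTGCAT, the STAT site TTCCNGGAA, the E-box CACGTG and the G-quadruplex pattern were not matched in these windows. In 300 bases at the middle of every merged region, a window at other positions, the extended half-site was in 0 of 25 regions at Esrrb and 0 of 13 at Tfcp2l1, against 1.19% of all 60797 regions and 0.423% of 32851 RefSeq promoters. There the half-site AGGTCA was in 6 and 2 regions, against 18.8% and 16.3%, and the TFCP2L1 dimer in 3 and 1, against 14.9% and 11.6%.

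The promoters are shown because a peak was listed at one of them and at none of the others. RefSeq promoters, 250 bases before to 50 after the start on the GRCm38.p6 build, matched both genes, with 1 entry for Tfcp2l1 (chr1:118627695-118627994) and 2 for Esrrb, at its first start (chr12:86360867-86361166) and its second (chr12:86421394-86421693).
Tfcp2l1 promoter: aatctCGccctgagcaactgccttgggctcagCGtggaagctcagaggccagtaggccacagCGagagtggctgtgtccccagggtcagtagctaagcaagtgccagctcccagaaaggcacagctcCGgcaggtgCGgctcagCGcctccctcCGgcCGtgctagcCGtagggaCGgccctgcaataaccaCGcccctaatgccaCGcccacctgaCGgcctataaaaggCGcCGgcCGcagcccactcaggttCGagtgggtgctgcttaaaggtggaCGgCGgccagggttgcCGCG
Esrrb first promoter: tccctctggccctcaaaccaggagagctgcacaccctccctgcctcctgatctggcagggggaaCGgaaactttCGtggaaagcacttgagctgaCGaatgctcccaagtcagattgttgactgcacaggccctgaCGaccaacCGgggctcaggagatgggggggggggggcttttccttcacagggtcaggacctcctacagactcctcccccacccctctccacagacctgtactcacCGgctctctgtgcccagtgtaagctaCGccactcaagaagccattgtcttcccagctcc
Esrrb second promoter: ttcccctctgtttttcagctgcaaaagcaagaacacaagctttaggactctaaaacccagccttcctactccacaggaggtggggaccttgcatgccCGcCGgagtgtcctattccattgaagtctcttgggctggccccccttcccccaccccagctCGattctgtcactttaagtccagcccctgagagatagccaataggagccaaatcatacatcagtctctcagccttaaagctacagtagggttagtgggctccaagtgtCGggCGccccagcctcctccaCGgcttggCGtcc
The Tfcp2l1 promoter held 21 CpGs at 65.3% GC, and 76.9% of 32851 RefSeq promoters had as few or fewer. Each Esrrb promoter held 7 CpGs, the median of all promoters, at 60.0% and 55.3% GC. A peak of the KO talazoparib list covered the Tfcp2l1 promoter, while neither Esrrb promoter had a peak in any of the 4 lists.

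All lists were shallow in the input. Pooled IP totals ran from 66.4 to 86.96 M tags and input totals from 24.5 to 38.1 M, and the median peak of a list held 2 to 4 input tags. IP density, used below, is the IP tags per bp of a peak over the mean of the pooled IP across 2648 Mb, and input density is the same for input. The median peak had an IP density of 2.00 to 2.91 and an input density of 0.306 to 0.561. Each list pools 3 IP libraries, so no value has a spread over replicates, no test could be made, and 95% exact intervals cover counting error only.

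Values for the 4 lists are given from here in one order, first both WT lists and then both KO lists, DMSO before talazoparib in each. Both genes had a peak in every list, as did 60.9%, 48.8%, 66.7% and 58.9% of protein-coding genes. Esrrb (ENSMUSG00000021255.17, chromosome 12, 86361117 to 86521628, plus strand, 6 transcripts) held 11, 6, 16 and 15 peaks. The shares of protein-coding genes that held at least as many were 0.338%, 0.374%, 0.160% and 0.0456%. Tfcp2l1 (ENSMUSG00000026380.10, chromosome 1, 118627945 to 118685168, plus strand, 2 transcripts) held 3, 1, 9 and 5, and 15.0%, 48.8%, 1.26% and 2.63% of genes held at least as many. These shares used the values that chose the genes, and nothing is read from them. The lists differ in length. With the 15526 best-scoring peaks of each, the counts were 4, 6, 3 and 7 at Esrrb and 1, 1, 3 and 4 at Tfcp2l1. KO DMSO then no longer held the most at either gene. The score can order long peaks otherwise than tags do. The KO DMSO peak of Esrrb region 19 stood at 308 in its list by tags but at 24573 by score, outside this cut. With a fold over input of at least 6 the counts were 7, 5, 13 and 9 at Esrrb and 0, 1, 6 and 0 at Tfcp2l1.

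Long genes offer more room for peaks, so the genes were also placed among genes of like length. Among 1513 protein-coding genes within 1.5 times the length of Esrrb, itself included, 39, 34, 19 and 2 had as many peaks as it in the 4 lists, where the median gene had 1, 1, 2 and 1. Among 3379 genes within 1.5 times the length of Tfcp2l1, 706, 2112, 43 and 129 had as many, with a median of 1 in each list. Esrrb held 6.45, 3.52, 9.38 and 8.80 peaks per 100 kb of its window, and Tfcp2l1 held 4.46, 1.49, 13.4 and 7.44, where the genome as a whole held 1.08, 0.586, 1.34 and 0.904. Per length, Tfcp2l1 was thus above Esrrb in KO DMSO and below it in the other 3 lists. These places and rates also use the values that chose the genes, so they are a description and support nothing.

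**Figure D1:**
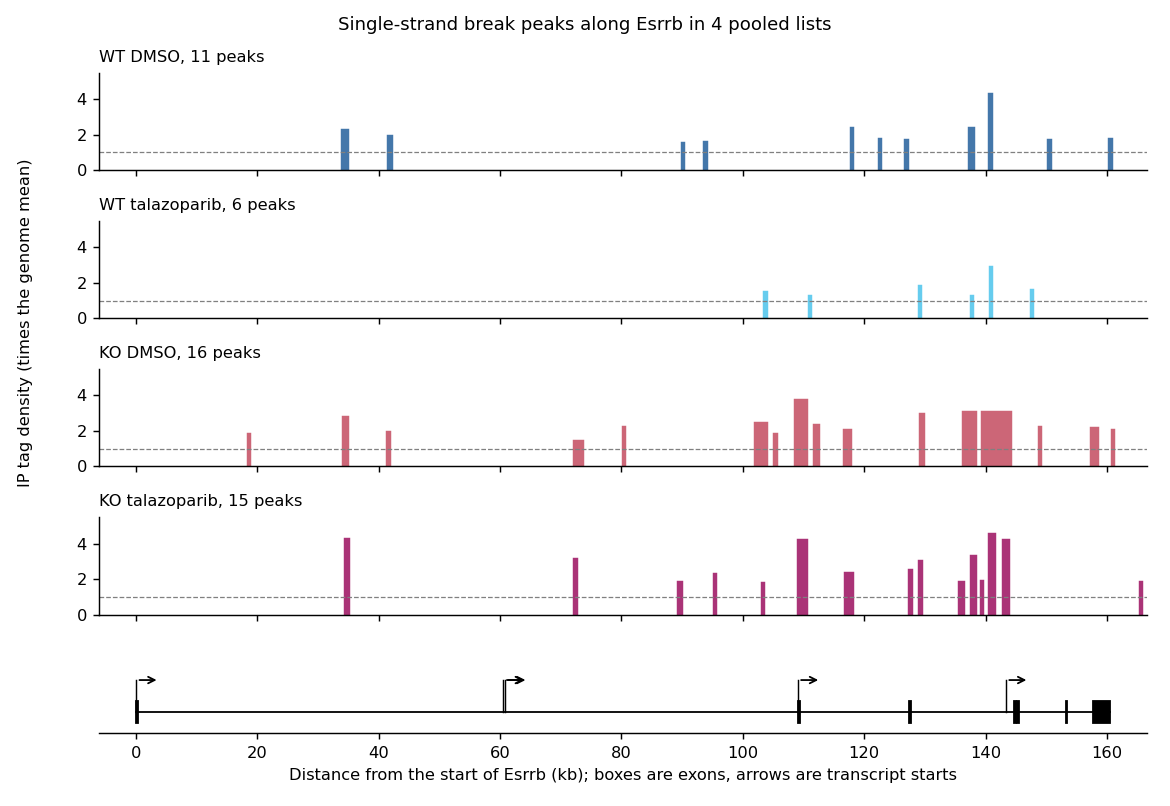
Peaks along Esrrb by distance from its start (kb), 1 panel per list, with bar height as IP tag density in multiples of the genome mean (dashed line) and bar width as peak length. Peaks gather in the last 51.5 kb, after the Esrrb-206 start at 109 kb, and the longest bar is the 4928-bp KO DMSO peak.

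Of 3 stretches of Esrrb, the 3' one held the most peaks in each list. The 60.5 kb between the first and the second start held 2, 0, 3 and 1 peaks. The next 48.5 kb, up to the start of Esrrb-206 at 109 kb, held 2, 1, 4 and 4. The last 51.5 kb held 7, 5, 8 and 9, and peaks there covered 9.28%, 4.85%, 27.3% and 18.3% of the DNA, more than in either of the other stretches in each list. The 3 stretches were alike in composition, with 48.4%, 48.5% and 49.8% GC and 1.26, 1.41 and 1.34 CpGs per 100 bp.

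Intron 1 of Esrrb, 108.6 kb long, opened with region 1, a 500-bp peak at 86379473 to 86379973 in KO DMSO with 3.54 normalised tags and 1 input tag. Normalised tags are IP tags per 10000000. Region 2, 34.4 kb from the start, had a peak in 3 lists: 86394938 to 86396143 in WT DMSO (10.5 tags, 8 input tags), 86395030 to 86396009 in KO DMSO (10.6, 4.5) and 86395373 to 86396150 in KO talazoparib (12.6, 7.5). It had no peak in WT talazoparib, and its IP densities of 2.31, 2.87 and 4.29 were carried by nearly equal tags over peaks of 1205, 979 and 777 bp.

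Region 3 of Esrrb, at 41.7 kb, was shared by the DMSO lists. Its peaks lay at 86402398 to 86403042 in KO DMSO (4.84 tags, 2 input tags) and 86402553 to 86403319 in WT DMSO (5.75, 2.5), and their IP densities were equal at 1.99. With 4.01 CpGs per 100 bp it was the region of Esrrb richest in CpG. Region 4, at 72.8 kb, was found in the KO lists, at 86433186 to 86434807 with DMSO (9.25 tags, 1.5 input tags) and at 86433118 to 86433750 with talazoparib (7.60, 2.5).

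Regions 5 to 8 of Esrrb held few input tags. Region 5 was a KO DMSO peak at 86441128 to 86441628 (4.34 tags, 1.5 input tags). Region 6 joined a WT DMSO peak at 86450927 to 86451427 (2.99, 1) to a KO talazoparib peak at 86450249 to 86451167 (6.62, 2), and soft-masked repeats made up 51.0% of it. Region 7 was a WT DMSO peak at 86454581 to 86455223 (3.97, 1.5), and region 8 a KO talazoparib peak at 86456151 to 86456651 (4.44, 1.5). None of these 5 peaks held more than 2 input tags, so a single input tag moves their fold over input by a large part.

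Region 9, at 102.9 kb, was missing from WT DMSO alone. In KO DMSO it was a 2135-bp peak at 86462993 to 86465128 with 20.4 tags and 7.5 input tags. Inside that peak lay those of WT talazoparib at 86464391 to 86465044 (3.82 tags, 1 input tag) and KO talazoparib at 86464124 to 86464624 (3.46, 0.5). Region 10 was a KO DMSO peak at 86466136 to 86466764 (4.48 tags, 1.5 input tags).

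Of the 2 Esrrb regions found in both KO lists and no WT list, region 11, 109.6 kb from the start, had the more tags. It covers the start of Esrrb-206 and exon 2 of Esrrb-204. The KO DMSO peak at 86469598 to 86471611 had 28.8 tags and 9.5 input tags, and the KO talazoparib peak at 86470023 to 86471760 had 27.9 tags and 16 input tags. Their IP densities were 3.79 (3.28 to 4.35) and 4.25 (3.66 to 4.91), and neither WT list had a peak there. With 61 CpGs in 2162 bp it held 2.82 per 100 bp, above the median of 1.77 over all regions. A WT talazoparib peak of 2.51 tags and 0.5 input tags, region 12, began just past its end, at 86471820 to 86472320.

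Further regions followed in intron 2 of Esrrb. Region 13 was a KO DMSO peak at 86472714 to 86473582 (7.81 tags, 2 input tags). Region 14, at 117.4 kb, had peaks at 86477626 to 86478959 in KO DMSO (10.6, 3.5), 86477776 to 86479266 in KO talazoparib (13.5, 6) and 86478687 to 86479331 in WT DMSO (5.86, 4.5). Like region 2, it was missing from WT talazoparib, and its IP densities of 2.11, 2.40 and 2.41 lay close together, with intervals that overlap. Region 15 was a WT DMSO peak at 86483331 to 86483831 (3.39 tags, 3 input tags).

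Region 16 crossed exon 3, where a KO talazoparib peak at 86488268 to 86488917 (6.25 tags, 2.5 input tags) overlapped the end of a WT DMSO peak at 86487717 to 86488343 (4.14, 2.5). In intron 3, region 17 was listed at 86490143 to 86491011 in KO DMSO (9.90 tags, 4 input tags), 86489951 to 86490695 in KO talazoparib (8.58, 5.5) and 86489968 to 86490468 in WT talazoparib (3.58, 1). It was the other region missing from WT DMSO alone.

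Region 18, 136.9 kb from the start and in all 4 lists, is the first of the 2 whose shared sequence is shown above. WT DMSO listed it at 86498248 to 86499259 with 9.25 tags and 5.5 input tags, and WT talazoparib at 86498532 to 86499032 with 2.51 tags and 0.5 input tags. KO DMSO listed it at 86497269 to 86499456 with 25.7 tags and 8 input tags. KO talazoparib split it into 86496617 to 86497586 (7 tags, 2.5 input tags) and 86498564 to 86499513 (12.0, 8.5). The WT talazoparib peak was the weakest of the 5, and the lower end of its IP density interval, 1.33 (0.823 to 2.03), lay below the genome mean. In that list 0.434% of the 5756 regions found in all lists had an IP density as low or lower.

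Region 19, at 141.6 kb and also in all 4 lists, was the longest of either gene at 5094 bp. The KO DMSO list gave it 1 peak of 4928 bp at 86500311 to 86505239, with 58.5 tags and 21 input tags, which stood 24th in that list by length and 308th by tags. The WT DMSO peak covered 795 bp at 86501442 to 86502237 with 13.0 tags and 8 input tags, and the WT talazoparib peak 500 bp at 86501696 to 86502196 with 5.61 tags and 3 input tags. KO talazoparib had 3 peaks, at 86500145 to 86500645 (3.69 tags, 0.5 input tags), 86501464 to 86502692 (21.3, 8.5) and 86503846 to 86504991 (18.3, 10). The last of these covers the start of Esrrb-205 at 143.3 kb, as does the KO DMSO peak, and the WT peaks end before it.

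Summed over the region, the tags at region 19 were 13.0, 5.61, 58.5 and 43.3 in the order of the lists, while the IP densities within the peaks were 4.33, 2.97, 3.14 and 3.99. The KO lists thus had several times the tags of the WT lists over longer stretches, while the densities of the WT and the KO lists overlapped. Among the 5756 regions found in all lists, 46.7%, 22.7%, 95.6% and 87.7% had as many tags or fewer. By IP density the shares at or below region 19 were 75.6%, 46.3%, 19.5% and 27.7%, so the KO lists placed it high by tags and low by density. The same regions had median tags of 13.8, 10.5, 22.9 and 21.9.

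The end of Esrrb held 6 further regions. Region 20 was a WT talazoparib peak at 86508464 to 86508964 (3.10 tags, 1 input tag), region 21 a KO DMSO peak at 86509740 to 86510240 (4.27, 2) and region 22 a WT DMSO peak at 86511156 to 86511859 (4.66, 3.5). All 3 lie in intron 5, and region 21 touches an exon of Esrrb-205. Region 23, a KO DMSO peak at 86518324 to 86519696 (11.6 tags, 5.5 input tags), reaches from intron 6 into the last exon. Region 24 crosses the gene end, with a WT DMSO peak at 86521348 to 86521848 (3.39, 1) and a KO DMSO peak at 86521710 to 86522210 (3.98, 1.5), and region 25 is a KO talazoparib peak at 86526313 to 86526813 (3.54, 2) that begins 4.68 kb past the end.

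No list had a peak in exon 1 of Esrrb, its upstream flank or at its second start. The nearest peaks outside the window were 31.4, 119, 22.3 and 31.6 kb upstream of the gene and 157, 157, 157 and 35.0 kb downstream of it, in the order of the lists. The member just inside the edge was region 25, which reaches past the 5 kb limit. Of the 25 regions, 20 lay within introns of Esrrb-204, 2 of them over exons of Esrrb-205, while 4 touched an exon of Esrrb-204 and 1 lay past the gene end. A promoter of any GENCODE transcript was touched by 2 of them, or 8.00%, against 29.6% of all regions.

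**Figure D2:**
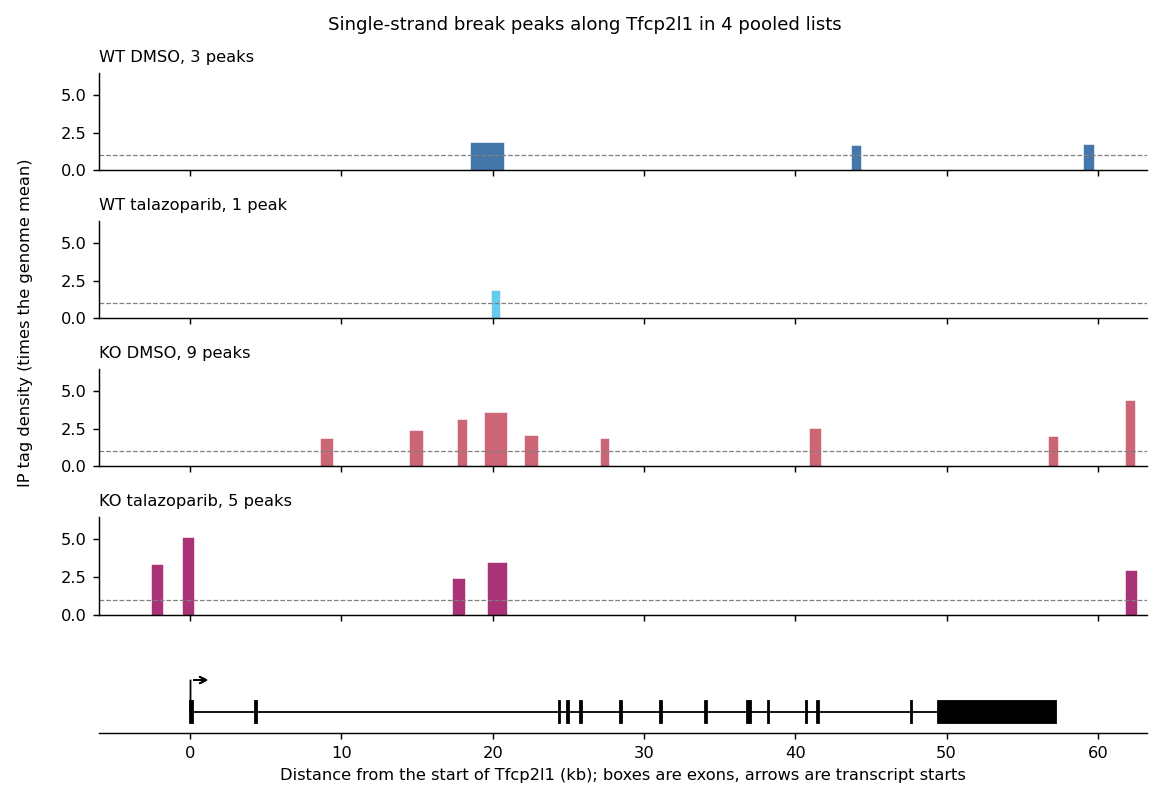
Peaks along Tfcp2l1 by distance from its start (kb), 1 panel per list, with bar height as IP tag density in multiples of the genome mean (dashed line) and bar width as peak length. A peak 19.7 kb into the gene is present in all 4 panels, and peaks at and before the start appear in KO talazoparib.

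At Tfcp2l1 the KO talazoparib list alone had peaks at the start. Region 2, at 118627460 to 118628101, covers the start and exon 1 with 12.3 tags, 7.5 input tags and an IP density of 5.08 (4.04 to 6.31), the highest of all 66 member peaks. Its input density of 1.09 was also the highest of the 66, and the other 65 were below the input mean. Region 1 lay 1.88 kb upstream, at 118625443 to 118626069 (7.75 tags, 4 input tags). The fold over input of the start peak was 4.66 where the lowest value in any list was 4.00.

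Intron 2 of Tfcp2l1, 19.9 kb long, held 5 of the 13 regions. Regions 3 and 4 were KO DMSO peaks at 118636574 to 118637301 (5.06 tags, 1 input tag) and 118642456 to 118643257 (7.09, 4), and 62.1% of region 3 was repeat sequence. Region 5 was shared by the KO lists, at 118645655 to 118646155 with DMSO (5.86 tags, 3.5 input tags) and 118645331 to 118646044 with talazoparib (6.40, 3.5). Region 7 was a KO DMSO peak at 118650098 to 118650872 with 6.00 tags over 0.5 input tags, which gave a fold of 29.8, the highest of any member. No member peak had fewer input tags, and several others had as few.

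Region 6, the part of intron 2 that all 4 lists shared, lay 19.7 kb from the start. The WT DMSO peak at 118646481 to 118648609 had 14.8 tags and 10 input tags, and the WT talazoparib peak at 118647872 to 118648372 had 3.40 tags and 0.5 input tags. The KO DMSO peak at 118647400 to 118648827 had 19.2 tags and 4 input tags, and the KO talazoparib peak at 118647644 to 118648809 had 15.2 tags and 10.5 input tags. IP densities were 1.84 and 1.80 in the WT lists and 3.56 and 3.45 in the KO lists, so by density the lists fell into WT and KO pairs. By tags they did not, since WT DMSO, at 14.8, was near KO talazoparib, at 15.2, and far above WT talazoparib, at 3.40. The peaks were 2128 and 500 bp long in the WT lists and 1427 and 1165 bp in the KO lists. Region 6 held 0.895 CpGs per 100 bp, below the median of all regions.

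The rest of Tfcp2l1 held single peaks of few tags, apart from the downstream flank. Region 8 in intron 5 at 118655091 to 118655591 (3.40 tags, 1 input tag), region 9 over exon 13 at 118668915 to 118669567 (6.07, 2) and region 11 over the gene end at 118684721 to 118685221 (3.76, 1.5) were KO DMSO peaks. Regions 10 and 12 were WT DMSO peaks, at 118671725 to 118672225 in intron 13 (3.10 tags, 2 input tags) and at 118687001 to 118687637, past the end (4.02, 3). Region 13, shared by the KO lists, lay past the end, 4.64 kb from it, at 118689810 to 118690310 with DMSO (8.17 tags, 4.5 input tags) and at 118689798 to 118690443 with talazoparib (7.08, 3.5). Region 13 was the member just inside the window's edge, with IP densities of 4.33 and 2.91. Of the 13 regions, 7 lay in introns of Tfcp2l1-201 alone, 3 touched one of its exons and 3 lay outside the gene body. The nearest peaks outside the window were 48.1, 91.5, 10.4 and 35.0 kb downstream and 30.7, 168, 37.8 and 168 kb upstream.

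Sharing between lists was set beside the whole genome. All 4 lists shared 2 of 25 regions at Esrrb and 1 of 13 at Tfcp2l1, against 9.47% of all regions. A single list held 13 of 25 and 10 of 13, against 61.6%. Both KO lists and neither WT list held 2 of 25, regions 4 and 11, and 2 of 13, regions 5 and 13, against 5.32%. Both WT lists and neither KO list held none of the 38, against 1.12%.

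By pairs of lists, sharing at Esrrb was higher within the KO lists than within the WT lists, as it was over all peaks. Of the Esrrb peaks, 8 of 16 in KO DMSO met a KO talazoparib peak (39.4% of all peaks) and 11 of 15 the other way (59.0%). In WT, 2 of 11 DMSO peaks met a talazoparib peak (28.4%) and 2 of 6 the other way (52.4%). Across genotypes with DMSO, 6 of 11 WT peaks met a KO peak (52.1%) and 6 of 16 the other way (41.4%), and with talazoparib these were 4 of 6 (50.3%) and 4 of 15 (32.5%). At Tfcp2l1 the counts in the same order were 3 of 9, 3 of 5, 1 of 3, 1 of 1, 1 of 3, 1 of 9, 1 of 1 and 1 of 5. With so few peaks, each of these shares moves widely with 1 peak.

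**Figure D3:**
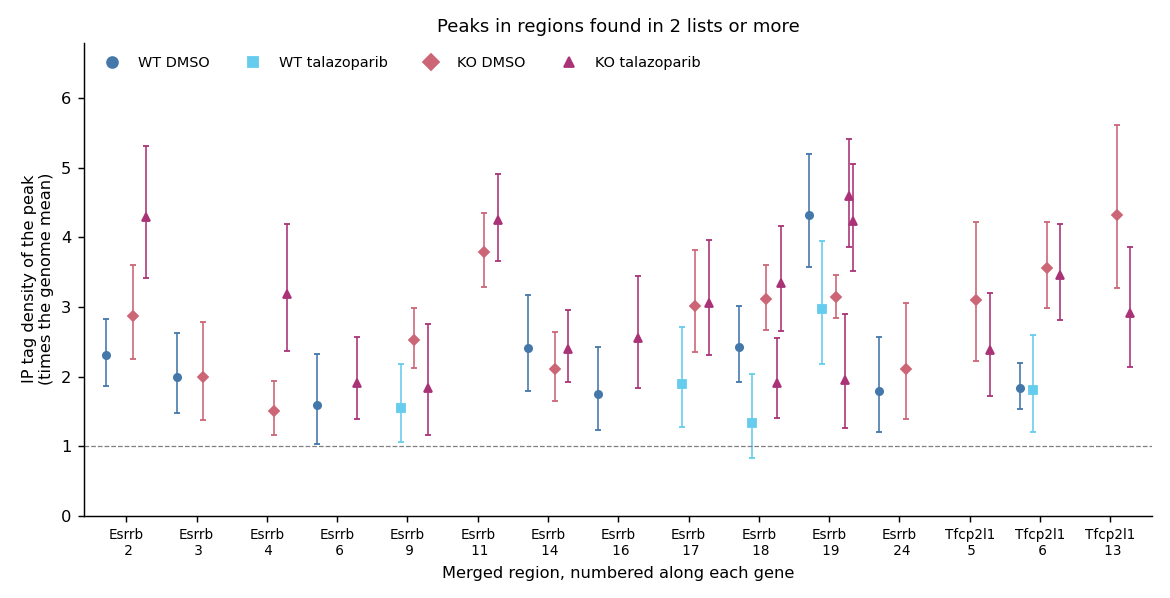
IP tag density, in multiples of the genome mean (dashed line), of each peak in the 15 regions found in 2 lists or more, with 95% exact Poisson intervals for counting error. KO talazoparib has 2 peaks at Esrrb region 18 and 3 at region 19, and at Tfcp2l1 region 6 the KO lists lie above both WT lists.

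IP densities were compared where 2 lists shared a region, as a ratio with a 95% exact interval, and a ratio past 1.5-fold is named as a size and not as a call. KO over WT with DMSO, the 6 shared regions of Esrrb had ratios of 0.726 to 1.28 with a median of 1.09, and the median over 14704 regions was 1.27. None of the 6 was past 1.5-fold higher, as 20.1% of all regions were, or lower, as 0.184% were. Tfcp2l1 region 6 was at 1.93 (1.51 to 2.48). Its tags differed less, by a ratio of 1.3, since the KO peak was 1427 bp and the WT peak 2128 bp.

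KO over WT with talazoparib, 4 regions of Esrrb had ratios of 1.18 to 1.97 with a median of 1.48, against a median of 1.56 over 7901 regions. Regions 17 and 18 were past 1.5-fold higher, at 1.61 (1.02 to 2.60) and 1.97 (1.24 to 3.30), as were 54.5% of all regions, and 0.481% were past it lower. Tfcp2l1 region 6 was again higher in KO, at 1.92 (1.26 to 3.02). The KO lists were thus higher at this region under both treatments, a direction that most regions shared. By tags, the Esrrb regions had a median ratio of 4.98 against 1.88 over all regions, on peaks longer by 2.66 against 1.20 times, and region 9 had fewer tags in KO, at a ratio of 0.906.

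Talazoparib over DMSO in WT cells, Esrrb region 18 was at 0.549 (0.322 to 0.896) and region 19 at 0.686 (0.478 to 0.972), and Tfcp2l1 region 6 at 0.978 (0.628 to 1.48). The tags of these 3 regions were lower with talazoparib, with ratios of 0.271, 0.432 and 0.230, and for Tfcp2l1 region 6 that was a 500-bp peak against 2128 bp. Region 18 was past 1.5-fold lower, as were 10.4% of 8261 regions, and 4.81% were past it higher. The median ratio over those 8261 regions was 0.946. In KO cells the 8 shared regions of Esrrb ran from 0.724 to 2.11 with a median of 1.13, equal to the median of 1.13 over 14004 regions. Their tags ratio had a median below 1, 0.844, as it did over all regions, 0.965. Region 4 was past 1.5-fold higher, at 2.11 (1.43 to 3.10), with a 632-bp talazoparib peak against 1621 bp with DMSO and a tags ratio of 0.822, and 12.0% of regions were past that size while 1.70% were past it lower. The 3 shared regions of Tfcp2l1 in KO cells were at 0.766, 0.970 and 0.672, and each interval included 1, while their tags ratios were 1.09, 0.792 and 0.867.

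The density of separately called peaks moves with their length. Over the 6 Esrrb regions the KO over WT ratio of tags with DMSO had a median of 1.49, against 1.54 over all regions, and the peaks were longer by a median of 1.53 times, against 1.21. At region 19 the tags ratio was 4.50 and the density ratio 0.726. At region 18 they were 2.78 and 1.28. The high tags of KO DMSO at these 2 regions thus went with longer peaks.

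**Figure D4:**
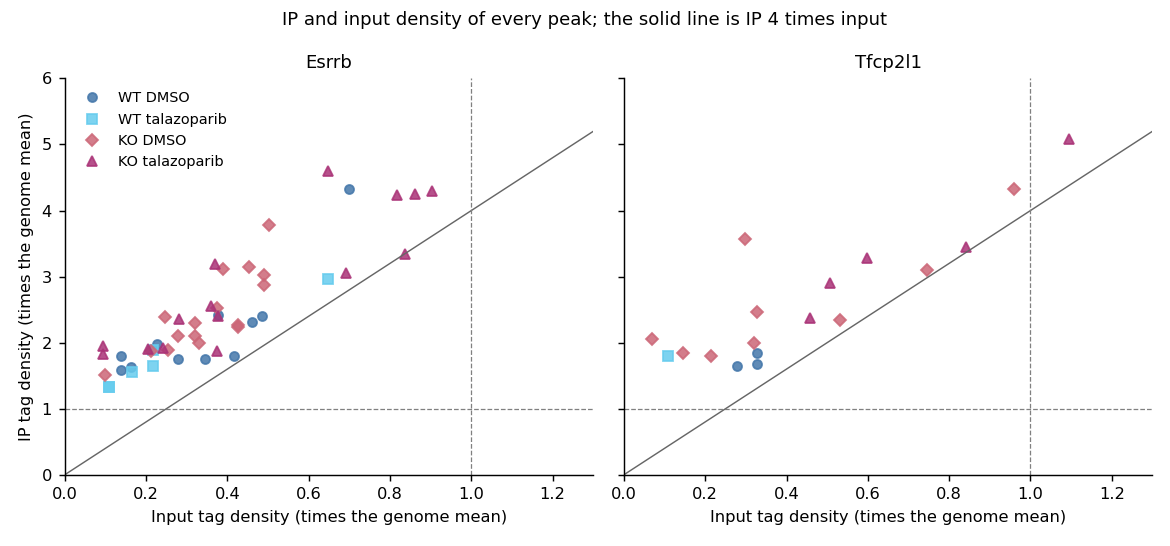
IP against input tag density, each in multiples of its library's genome mean, for the 48 peaks of Esrrb and the 18 of Tfcp2l1. The lowest fold over input in any list was 4.00, so all points lie above the line of IP 4 times input or within rounding of it. All but the Tfcp2l1 start peak lie below an input density of 1.

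Low input touched every result above. Of the 66 peaks, 33 had fewer than 3 input tags, 22 had the 500-bp length that is the shortest listed, and 28 had an IP density below 2. Over all peaks of the 4 lists, 44.7%, 44.4%, 34.9% and 38.9% were 500 bp long. Their median input tags were 3.5, 2, 3 and 4, and their median IP densities 2.00, 2.11, 2.53 and 2.91. Nothing particular to the 2 genes is read from these counts. The interval of the IP density lay above the genome mean for 64 of the 66. Peaks were listed for their IP over input, with a lowest fold of 4.00, so nothing is read from that number. At Esrrb the median input density of peaks was 0.346, 0.191, 0.353 and 0.374 in the 4 lists, and at Tfcp2l1 0.326, 0.108, 0.320 and 0.597. Its part in which peaks were listed was not tested.

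Beside all regions of the genome, those of both genes were ordinary or low in CpG. Median GC content was 51.8% at Esrrb and 48.6% at Tfcp2l1, against 51.1% over all regions, and the windows as a whole had 48.9% and 46.6%. Median CpGs per 100 bp were 1.54 and 1.08, below the 1.77 of all regions but above the 1.32 and 0.840 of the windows as a whole. Above the median of all regions were 11 of 25 regions at Esrrb and 1 of 13 at Tfcp2l1. The 1 at Tfcp2l1 was the start peak, with 4.67 CpGs per 100 bp.

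Peaks were also counted at their paralogs. Esrra, a related receptor active in energy metabolism, held 2, 2, 4 and 3 peaks in the order of the lists, and Esrrg, at 606 kb the longest gene of the set, held 1, 1, 3 and 0. In the CP2 and grainyhead family, Tfcp2 held 1, 2, 2 and 2, Ubp1 2, 1, 2 and 0, Grhl1 2, 1, 5 and 1, Grhl2 2, 0, 3 and 6, and Grhl3 5, 5, 5 and 1. By number, Esrrb was above both of its paralogs in each list. Per 100 kb the 10.8-kb Esrra, with 9.60, 9.60, 19.2 and 14.4, was above Esrrb in each list, and Esrrg was below it. Tfcp2l1 was above all 5 of its own by number in KO DMSO, and in the other lists at least 1 of them held as many or more. Per 100 kb Grhl3, with 12.0, 12.0, 12.0 and 2.40, was above Tfcp2l1 in the WT lists and below it in the KO lists. Tfcp2, Ubp1 and Grhl1 were above it per 100 kb in WT talazoparib only. The 2 members were chosen by their peak numbers, so nothing is read from these orders.

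Other genes of the naive network were taken from a list of 33. At least 1 peak was listed at 31, 27, 32 and 27 of them, with medians of 2, 1, 3 and 2 peaks per gene where all protein-coding genes had medians of 1, 0, 1 and 1. Over all protein-coding genes the share with a peak was 60.9%, 48.8%, 66.7% and 58.9%. The LIF and STAT3 input had a peak at 5 of 5 genes in every list. The core factors had one at 4, 2, 4 and 4 of 4, which in WT talazoparib is close to the share of all genes, and the naive transcription factors at 9, 8, 9 and 8 of 10. The GSK3 and TCF7L1 input had a peak at 3, 3, 3 and 2 of 3 genes, and the coactivators or chromatin partners at 3 of 3 in every list. Naive markers or targets had one at 7, 6, 8 and 5 of 8, which in KO talazoparib is close to the share of all genes. No gene of the list was without a peak in all 4 lists, and the highest count in a list was 6.

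The 6 genes with the most peaks over the lists were Gsk3b, the kinase inhibited in 2i, with 5, 4, 6 and 4, Jarid2, a partner of Polycomb complexes, with 6, 3, 6 and 2, Fbxo15, an embryonic stem cell marker, with 4, 2, 5 and 4, Tcf7l1, the repressor of Esrrb, with 3, 1, 5 and 5, Tdh, the threonine dehydrogenase, with 5, 2, 4 and 3, and Klf2, a naive factor, with 2, 3, 5 and 3. Gsk3b, at 157 kb, and Tcf7l1, at 163 kb, are close to Esrrb in length. Per 100 kb they held 2.99, 2.39, 3.59 and 2.39 peaks, and 1.74, 0.578, 2.89 and 2.89, each below Esrrb in the same list. The shorter Tdh, with 18.7, 7.48, 15.0 and 11.2, and Klf2, with 15.8, 23.8, 39.6 and 23.8, were above Esrrb per 100 kb in every list. Fbxo15, with 7.06, 3.53, 8.82 and 7.06, was above it in the WT lists and below it in the KO lists, and Jarid2, with 2.97, 1.48, 2.97 and 0.989, was below it in each. Since Esrrb was chosen by its peak number, its place among these genes is a description.

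**Figure D5:**
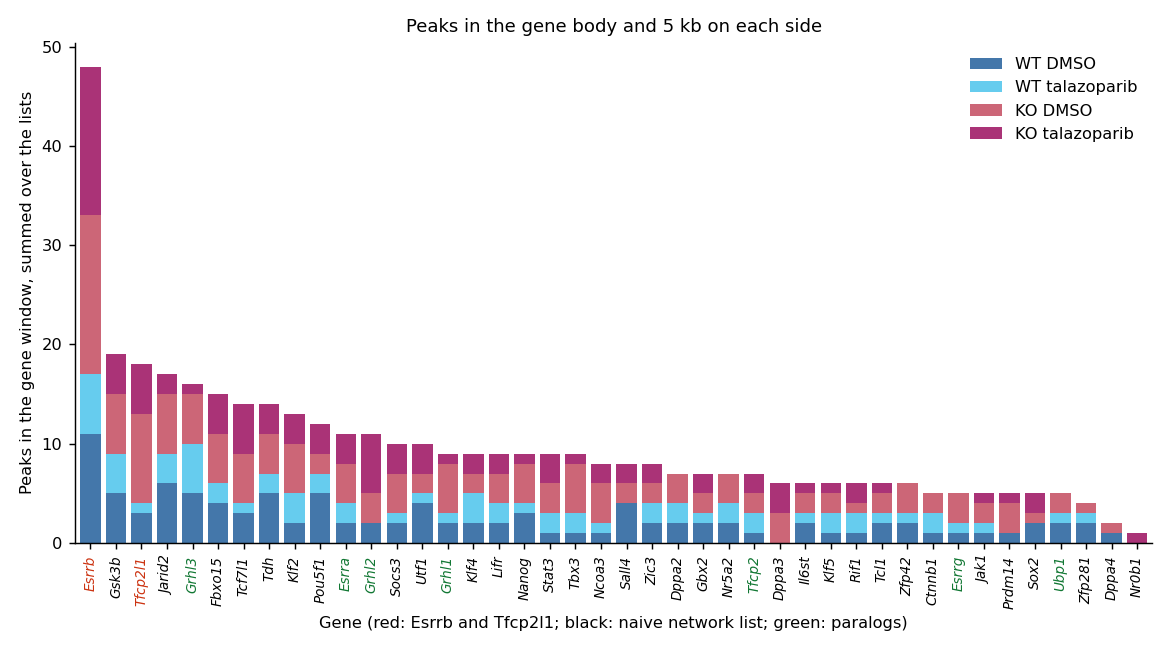
Peaks in the gene body and 5 kb on each side, summed over the 4 lists and coloured by list, for Esrrb and Tfcp2l1, 33 genes of the naive network and 7 paralogs. Esrrb stands at 48, Gsk3b follows with 19 and Tfcp2l1 with 18.

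The stretches around the 2 members held fewer peaks per length than the members. Within 250 kb of Esrrb, Ift43 held 0, 2, 5 and 1 peaks, Gpatch2l 0, 1, 1 and 1, Vash1 2 in each list, Angel1 1 in each list and Lrrc74a 1, 1, 0 and 2. Of these, the 13.4-kb Vash1 had 8.55 peaks per 100 kb, above Esrrb in both WT lists and below it in both KO lists. The 250 kb upstream of its window held 6, 2, 10 and 4 peaks, and the 250 kb downstream 4, 4, 5 and 6, so each was below the 170.5 kb window of Esrrb in every list. Beside Tfcp2l1, the 224-kb Clasp1 held 6, 2, 4 and 5, and the 219-kb Gli2 8, 6, 5 and 7, and per length Gli2 was above Tfcp2l1 in WT talazoparib, with 2.61 peaks per 100 kb. The 250 kb upstream of the Tfcp2l1 window held 2.40, 0.8, 1.60 and 2.00 peaks per 100 kb and the 250 kb downstream 1.20, 1.20, 1.20 and 2.40, each below Tfcp2l1 in the same list. Both members were chosen by their peak numbers in these lists, so lower surroundings are a description and support nothing.

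Likeness was measured as the sum over the 4 lists of absolute differences in peak number. The gene most like Esrrb was Sh3pxd2a, with 11, 5, 16 and 15 peaks and a distance of 1, at 204 kb. Next came Pcdhgb1 and Pcdhga4, which overlap each other in the gamma protocadherin cluster, each with 11, 6, 17 and 12 and a distance of 4. The genes most like Tfcp2l1 were Plxdc1 and Zdhhc19, with 3, 1, 7 and 5 each, and Ndst1, with 2, 1, 8 and 5, all at a distance of 2 with 6 genes that close. The measure spans 4 lists that share no library but differ in length, and likeness in number is all that it shows.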

How the data were processed

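SSB-seq was analysed from 16 libraries, 3 IP and 1 input in each of 4 conditions. Of tools, HOMER 4.11, R 3.6, Bowtie2 2.3.4.2 and Picard 2.9.2 are listed, with the build mm10, per the submitters' processing notes, and their settings are not given in the sources used here. All 4 deposited lists carry the columns of HOMER's peak finder, per the file headers, with 1 value per peak for each condition, so the authors pooled the libraries. The authors' normalised tag count is a signal, IP tags per 10000000, and the deposited input tags are a signal in steps of 0.5 tags. A deposited column of IP tags brought to the input's total is of another unit. The deposited fold is a ratio, of those scaled tags over the input tags, and their deposited p-value and score are peak properties used to describe or rank peaks within a list. Coordinates are printed as deposited, and the base from which starts are counted is unknown.

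Peaks on chromosomes 1 to 19, X and Y were used. IP totals were recovered from the steps of normalised tag counts under 6 and input totals from the scaling factor. IP density does not depend on the IP total. Peaks of all lists were merged where they shared 1 bp. Python 3.11.15, pandas 2.3.3, SciPy 1.17.1 and pysam 0.24.0 were used, with 95% exact Poisson intervals for tags and conditional Clopper-Pearson intervals for ratios. Merging and counting were tested on simulated peaks. Genes came from GENCODE M21, and sequences from GRCm38.p6 and RefSeq.

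The 2 genes and the gene lists were chosen with earlier results of these data known. All peaks of both genes are given. Of the naive list, the 6 genes with most peaks and any with none in all lists were to be named, of the paralogs all, the 3 genes most alike in peak number with ties broken by length, and protein-coding neighbours within 250 kb. Sequences are 300 bases of the stretch common to all 4 lists and the promoters.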

Additional observations from a re-analysis of the deposited data

Results flagged for a closer look

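Esrrb region 19, in intron 3 of Esrrb-204, had IP densities that moved in opposite directions with talazoparib. The talazoparib over DMSO ratio of IP density was 0.686 (95% exact interval 0.478 to 0.972) in WT and 1.27 (1.09 to 1.48) in KO. Over all regions shared by the 2 lists of a genotype the medians lay on the same sides of 1, at 0.946 in WT and 1.13 in KO. The directions are therefore not particular to this region. The difference between the genotypes was not tested, since each condition has 1 pooled list. The peaks compared were 500 bp against 795 bp in WT, and in KO 3 peaks of 2873 bp in sum against 1 of 4928 bp. The tags fell with talazoparib in both genotypes, with ratios of 0.432 in WT and 0.740 in KO, where the medians over all shared regions were 0.824 and 0.965.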

How the results depend on the processing

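Peak numbers depended on which peaks were kept. With a fold of at least 6, Esrrb held 7 peaks in WT DMSO and 9 in KO talazoparib, Tfcp2l1 held 0 in WT DMSO and 0 in KO talazoparib, and the regions in all 4 lists fell to 1 and 0. With an IP density of at least 2, Esrrb held 4 in WT DMSO and 1 in WT talazoparib, and Tfcp2l1 0 and 0. With at least 3 input tags, Esrrb held 6, 1, 8 and 7 over the lists, and Tfcp2l1 0 in WT talazoparib and 4 in KO DMSO. With the 15526 best-scoring peaks of each list, Esrrb held 4, 3 and 7 in WT DMSO, KO DMSO and KO talazoparib against 6 in WT talazoparib, Tfcp2l1 held 1 in WT DMSO and 3 in KO DMSO, and no region of either gene was in all 4 lists (0 and 0). The order of the lists at Esrrb therefore does not hold at equal numbers of best-scoring peaks. In 500-bp peaks of under 6 normalised tags the median ratio of score to IP tags was 1.02 in every list. In long peaks the score need not follow tags. In KO DMSO the peaks of Esrrb regions 11, 18 and 19, with 28.8, 25.7 and 58.5 tags, stood at 23422, 30947 and 24573 by score, outside the cut. The KO DMSO peak of Tfcp2l1 region 6, with 19.2 tags, stood at 29597. The cause of the changed order was not tested. With the gene body alone, Tfcp2l1 held 3 in KO talazoparib. Tags without division by peak length gave median log2 ratios, KO over WT with DMSO, of 0.54 at Esrrb and 0.38 at Tfcp2l1, against 0.12 and 0.95 for density. The other overlap rules changed none of the counts of regions in all 4 lists. Leaving out single libraries was not run, since the lists hold no values per library. No paired analysis was possible because the lists pool the libraries of a condition. Low input counts limit every fold.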
